A study of Homo sapiens with 16 samples.

Results

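The AP-1 subunits of the FOS and JUN families were followed in SUM-225 cells, an established human breast cancer line in which the HER2 (ERBB2) gene is amplified and overexpressed, while the HER2 kinase was inhibited with CP724,714. Every probe that the deposited array table assigns to FOS, FOSB, FOSL1, FOSL2, JUN, JUNB or JUND was taken. This gave 7 probes of 24526, 1 for each gene, and all 7 were among the 16110 probes that were detected on at least 3 arrays and therefore tested. The sample labels give the medium as Ham's F-12 with fetal bovine serum, insulin and hydrocortisone, whereas the study's methods describe a medium without serum or insulin for this line, so the medium of these cultures is not settled. They received 1 µM CP724,714, and parallel cultures were harvested for total RNA at 16 time points 3 h apart, from 0 h to 45 h, with 1 Illumina bead array per time point. No time point had a replicate, so neighbouring arrays stood in for replicates in every test, and an untreated course was not analysed here. The effect of the inhibitor therefore cannot be told apart from time in culture or from handling at the start. For such time courses the study's methods describe a change of medium when treatment began.

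AP-1 is a dimeric transcription factor. FOS family proteins pair with JUN family proteins through a leucine zipper, whereas JUN family proteins can also pair with one another, and the dimers bind the sequence TGACTCA or its relative TGACGTCA. FOS, FOSB, JUN and JUNB are immediate early genes, transcribed within minutes of growth factor signalling through the ERK and JNK kinases, FOSL1 (FRA-1) follows sustained ERK signalling, and JUND is transcribed more steadily. HER2 signals through the RAS-ERK pathway, which lies upstream of several of these genes.

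The promoters are shown because several members have a known cyclic AMP response element or AP-1-like site just before the start of transcription. RefSeq sequences (GRCh38.p14) were matched by symbol for 6 of the 7 genes, all but FOSL1. The 90 bases before each annotated start are given 5′ to 3′ on the gene's own strand, with capitals marking TGACG on either strand or TGACATCA.
FOS (chr14:75278738-75278827, plus strand): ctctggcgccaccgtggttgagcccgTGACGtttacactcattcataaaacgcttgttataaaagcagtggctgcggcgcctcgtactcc
FOSB (chr19:45467906-45467995, plus strand): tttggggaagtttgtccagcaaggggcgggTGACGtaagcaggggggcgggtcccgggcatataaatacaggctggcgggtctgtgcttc
FOSL2 (chr2:28392768-28392857, plus strand): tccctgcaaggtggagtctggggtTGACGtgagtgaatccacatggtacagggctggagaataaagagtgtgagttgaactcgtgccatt
JUN (chr1:58784048-58784137, minus strand): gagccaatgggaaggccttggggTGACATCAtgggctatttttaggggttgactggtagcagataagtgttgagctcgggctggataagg
JUNB (chr19:12791396-12791485, plus strand): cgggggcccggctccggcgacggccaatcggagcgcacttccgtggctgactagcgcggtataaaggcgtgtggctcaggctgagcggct
JUND (chr19:18281623-18281712, minus strand): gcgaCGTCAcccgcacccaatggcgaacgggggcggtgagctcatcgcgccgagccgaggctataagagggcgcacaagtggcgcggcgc

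Either marked motif was found in these 90 bases in 5 of the 6 promoters, against 12.3% of 35116 RefSeq promoters. Counting back from the start as base -1, the TGACG of FOS, FOSB and FOSL2 began at bases -64, -60 and -66, and the TGACATCA of JUN at base -67. JUND carried TGACG on the opposite strand at bases -86 to -82, and JUNB had its TGACG farther out, at bases -137 to -133. Over the full 250 bases before the start, TGACG was present on either strand in 6 of 6 promoters (21.2% of all promoters), and the longer TGACGT, which contains it, was present in 4 of 6 (7.1%). The full palindrome TGACGTCA, which contains both, was found in JUND alone (1.65% of all), and the consensus AP-1 sequence TGACTCA in none of the 6 (4.2% of all). Within these 250 bases TATAAA was found in FOS, FOSB and JUNB (10.7% of all) and no CArG box in any of the 6 (1.16% of all). Bases farther out were not searched, so a CArG box there would be missed. The motifs were chosen with these sequences in view, and a match is a description of letters, not of binding.

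The values below are log2 intensities after background correction and quantile normalization, so that 1 unit is a doubling, and they are compared only within a probe. The medians of the raw signals ranged from 242 to 384 between arrays, 57.5% to 61.5% of the probes were detected per array at a detection p-value under 0.05, and no array pair held identical values. Of the markers of the cell line, KRT8, KRT18, KRT19, EPCAM, CDH1, GATA3, ERBB2, GRB7 and STARD3 were detected on all 16 arrays. PTPRC (leukocytes) and VIM (mesenchymal cells) were detected on none, COL1A1 and COL1A2 (fibroblasts) were detected on 5 arrays each, and PECAM1 (endothelium) was detected on all 16 at a mean log2 value of 7.60. Of the AP-1 probes, 6 were detected on all 16 arrays, and FOSL1 on 10, being undetected from 30 h to 45 h.

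Among the 7 subunits, 3 different courses were seen over 45 h: FOSL1 was highest at 0 h and low thereafter, FOS and JUN were lowest at 3 h and higher again from 12 h to 21 h, and JUND rose. FOSB, FOSL2 and JUNB passed no test. With bulk RNA, fewer cells expressing a gene and less RNA per cell cannot be told apart. In the fitted cubic course, 2 of the 7 probes depended on time, namely FOSL1 (limma moderated F-test, adjusted p = 0.00285) and JUND (adjusted p = 1.79e-05), against 51.3% of all probes tested. FOS missed the threshold with an adjusted p of 0.0586 and FOSL2 with an adjusted p of 0.0719. FOS passed it with median scaling (0.0309), cyclic loess (0.0393), a natural spline (0.0450) and array weights (0.00112), and without the 0 h array (3.13e-05) or the 3 h array (0.00470), whereas without the 45 h array its adjusted p was 0.189. FOSL2 passed it with the spline (0.0103) and without the 33 h array (0.0496), and its adjusted p without the 0 h array was 0.829. The same 2 changed along a straight line over 45 h, JUND rising and FOSL1 falling, against 47.7% of all probes (4190 rising and 3495 falling). Both shares lie below those of the array as a whole. The median linear change was 0.19 over the 7 subunits and 0.05 over all probes.

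**Figure D1:**
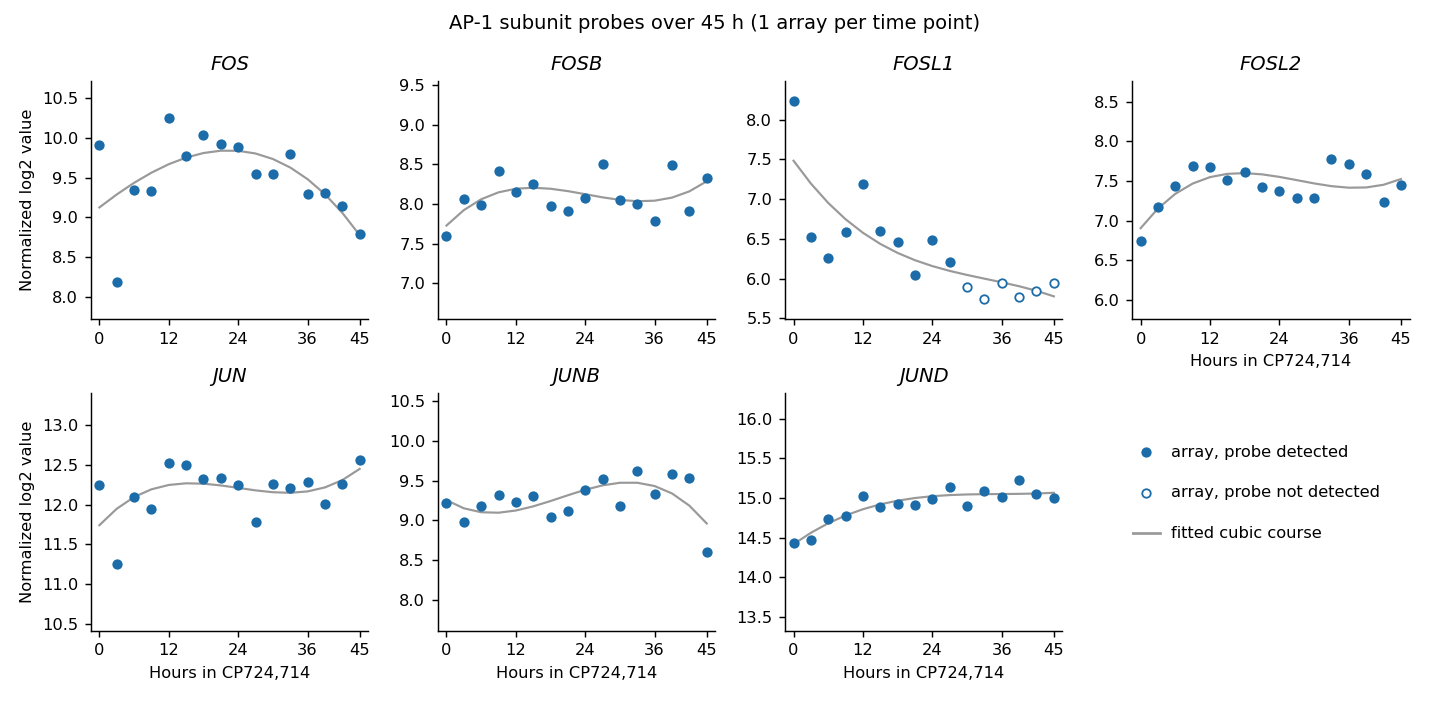
Normalized log2 value of each AP-1 subunit probe (vertical axes, each spanning 3 log2 units) against hours in CP724,714, with 1 point per array, open where the probe was not detected, and the fitted cubic course as a grey line. FOS and JUN have their lowest point at 3 h, FOSL1 its highest at 0 h, and JUND lies at 14.43 at 0 h and near 15 from 12 h on.

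The FOS family subunits, which pair with JUN family proteins to bind DNA, did not follow a common course. FOS, the founding immediate early member, stood at a log2 value of 9.92 at 0 h and at 8.18 at 3 h. It was 9.34 at both 6 h and 9 h, then 10.25, 9.78, 10.03 and 9.93 from 12 h to 21 h. From 24 h to 33 h FOS was at 9.89, 9.55, 9.55 and 9.79, and from 36 h to 45 h at 9.30, 9.31, 9.14 and 8.79. The 3 h array was thus the lowest of the series and the 12 h array the highest, and the last 4 arrays lay below all arrays from 12 h to 33 h.

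The value of FOS at 3 h was 3.32-fold below that at 0 h, and the value at 12 h was 4.19-fold above that at 3 h. The mean of 3 h to 9 h was 8.96 ± 0.67 (SD, n = 3 arrays) and that of 12 h to 21 h was 9.998 ± 0.20 (n = 4 arrays), a rise of 1.04 ± 0.21 (SE) on the log2 scale (limma, adjusted p = 0.00131). The 2 sets of arrays did not overlap. Without the 3 h array this rise was 0.66 and remained past the threshold. Against 0 h, the 3 h to 9 h mean differed by -0.96 ± 0.32 (adjusted p = 0.136). The last step, from 24 h to 33 h to 36 h to 45 h, was -0.56 ± 0.20 (adjusted p = 0.147), with no overlap between the arrays (6.19% of all probes were likewise lower without overlap). Over the whole 45 h the linear change of FOS was -0.24 ± 0.30 (adjusted p = 0.547), and its sign turned to 0.38 with array weights, to 0.51 with a step between 21 h and 24 h, and to 0.01 without the 45 h array. Without the 3 h array it was -0.74 (adjusted p = 0.00675).

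FOSL1 (FRA-1), which is often abundant in aggressive breast cancer cells, had its highest value, 8.24, at 0 h, as did 12.3% of all probes. It was 6.53, 6.26 and 6.59 from 3 h to 9 h, then 7.19, 6.60, 6.46 and 6.05 from 12 h to 21 h. At 24 h and 27 h it was 6.48 and 6.20, and from 30 h on it was not detected. No later array reached the value of 0 h, and all 15 lay at least 1.7-fold below it. How many of all probes lay that far below 0 h on every later array was not counted.

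FOSL1 fell by 1.78 ± 0.36 between 0 h and the 3 h to 9 h window (limma, adjusted p = 0.00912), a 3.44-fold difference between the means. Its linear fall over 45 h was -1.51 ± 0.32 (adjusted p = 0.000537). On the background-corrected scale, FOSL1 at 0 h was at least 4.42-fold higher than its mean over 36 h to 45 h. This bound took the lowest value that still counted as detected on each array, and it holds only on that scale. Raw FOSL1 signals were 447 at 0 h and 217 to 222 from 36 h to 45 h. The probe was dim, with raw signals between 209 and 447. Without background correction its change from 0 h to 3 h was -0.85 in place of -1.71, and the FOSL1 linear change was -0.60 (adjusted p = 0.00104). The fall from 0 h rests on the single 0 h array. With array weights its size was -1.75 but it no longer passed the threshold. Every subunit had the same adjusted p in this comparison with those weights, so the loss was not particular to FOSL1. The linear fall passed the threshold neither with a step between 21 h and 24 h (-1.60, adjusted p = 0.190) nor with the sets of 4 consecutive arrays as a factor (-4.21, adjusted p = 0.117).

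FOSB, a close relative of FOS that is also an immediate early gene, had its lowest value, 7.60, at 0 h and its highest, 8.50, at 27 h. FOSL2 (FRA-2) likewise had its lowest value, 6.74, at 0 h and its highest, 7.78, at 33 h. Both stood above 0 h on all 15 later arrays, FOSB at least 1.7-fold at 3 of them and FOSL2 at 7. The share of all probes with 0 h as their lowest array was not counted. Between 0 h and 3 h to 9 h the difference was 0.56 ± 0.27 for FOSB (adjusted p = 0.314) and 0.69 ± 0.25 for FOSL2 (adjusted p = 0.165). Neither passed the test, although FOSL2 did when the 3 h array was left out (0.82, adjusted p = 0.0420). From 3 h on, the window means of FOSB lay between 8.07 and 8.16, and those of FOSL2 between 7.43 and 7.56. The linear changes were 0.19 ± 0.19 for FOSB (adjusted p = 0.438) and 0.26 ± 0.18 for FOSL2 (adjusted p = 0.242), and the former turned to -0.51 with a step between 21 h and 24 h. Both rested on the 0 h array, without which they were 0.015 for FOSB (adjusted p = 0.960) and 0.019 for FOSL2 (adjusted p = 0.946). FOSL2 was dim throughout, with raw signals of 264 to 435.

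Of the JUN family, JUN (c-Jun), the target of JNK and the strongest activator of the family, resembled FOS early in the course. JUN stood at 12.24 at 0 h and at 11.25 at 3 h, then at 12.10 and 11.94 at 6 h and 9 h. From 12 h to 21 h it was at 12.53, 12.50, 12.32 and 12.33. From 24 h to 33 h it was at 12.25, 11.78, 12.27 and 12.21, and from 36 h to 45 h at 12.29, 12.00, 12.26 and 12.57. The 3 h array was again the lowest, but unlike FOS the highest array was the last one.

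JUN was 1.98-fold lower at 3 h than at 0 h and 2.42-fold higher at 12 h than at 3 h. The rise from 3 h to 9 h (11.77 ± 0.45, SD, n = 3 arrays) to 12 h to 21 h (12.42 ± 0.11, n = 4 arrays) was 0.65 ± 0.17 (limma, adjusted p = 0.00602), and the 2 sets of arrays did not overlap. Without the 3 h array the rise of JUN was 0.40 (adjusted p = 0.0474). Its difference between 0 h and 3 h to 9 h was -0.48 ± 0.25 (adjusted p = 0.364), and its linear change over 45 h was 0.33 ± 0.21 (adjusted p = 0.219). With array weights, and likewise without the 0 h array, both the linear change (0.63 and 0.43) and the time dependence of JUN passed the threshold. Without the 3 h array the linear change of JUN was 0.053 (adjusted p = 0.825), with the sets of 4 consecutive arrays as a factor it was 0.24 (adjusted p = 0.929), and with a step between 21 h and 24 h it was 0.90 (adjusted p = 0.256).

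JUND, which is often found to restrain growth, rose by 0.55 ± 0.08 over 45 h (limma, adjusted p = 7.95e-06). It was at 14.43 at 0 h and at 14.47, 14.73 and 14.77 from 3 h to 9 h. From 12 h to 21 h it was at 15.03, 14.88, 14.93 and 14.92, and from 24 h to 33 h at 14.99, 15.14, 14.90 and 15.09. The last 4 arrays were at 15.02, 15.22, 15.05 and 15.00. All 15 later arrays lay above 0 h, and all 12 arrays from 12 h on lay above the first 4. For neither pattern was the share of all probes counted.

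The rise of JUND was uneven. Only 1 of the 7 subunits departed from a straight line, and it was JUND (adjusted p = 0.0229, against 19.3% of all probes). Between 3 h to 9 h and 12 h to 21 h it rose by 0.28 ± 0.08 (adjusted p = 0.00983), and the arrays of these windows did not overlap. The later steps were 0.09 ± 0.07 (adjusted p = 0.510) and 0.04 ± 0.07 (adjusted p = 0.853). At 1.73-fold from lowest to highest array, JUND had the narrowest range of the 7, and its brightest signal was 69.2% of the highest on its array. The step at 12 h was 0.21 with median scaling (adjusted p = 0.130) and 0.19 without the 3 h array (adjusted p = 0.0785). With median scaling the JUND linear change was smaller, at 0.36 (adjusted p = 0.00708), and with cyclic loess it was 0.43. The linear rise missed the threshold with a step between 21 h and 24 h (0.48, adjusted p = 0.09998) and with the sets of arrays as a factor (0.31, adjusted p = 0.753).

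JUNB, an immediate early member that can oppose JUN, passed no test. Its lowest value was 8.60 at 45 h and its highest 9.62 at 33 h, and it was never 1.7-fold from its 0 h value of 9.22. The linear change was 0.14 ± 0.17 (adjusted p = 0.544). Its last array stood apart, at 0.94 log2 units below the array before it, and without that array the linear change was 0.45 (adjusted p = 0.0159).

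Because 1.7-fold against 0 h needs no replicate, it was also counted at each time point. At 3 h, 3 of the 7 subunits (FOS, FOSL1 and JUN) were at least 1.7-fold below 0 h, against 2.43% of all probes, and 0 were above, against 1.82%. A fall of this size from 0 h to 3 h followed by a rise of this size from 3 h to 12 h was shown by 2 of the 7, FOS and JUN, against 0.919% of all probes. Both comparisons rest on single arrays and have no test. The same 2 subunits had the 3 h array as their lowest, as did 11.2% of all probes. At some later time point 6 of the 7 subunits, all but JUNB, were at least 1.7-fold from 0 h, against 50.3% of all probes. The median difference from 0 h to 3 h was -0.24 over the subunits and 0.01 over all probes.

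**Figure D2:**
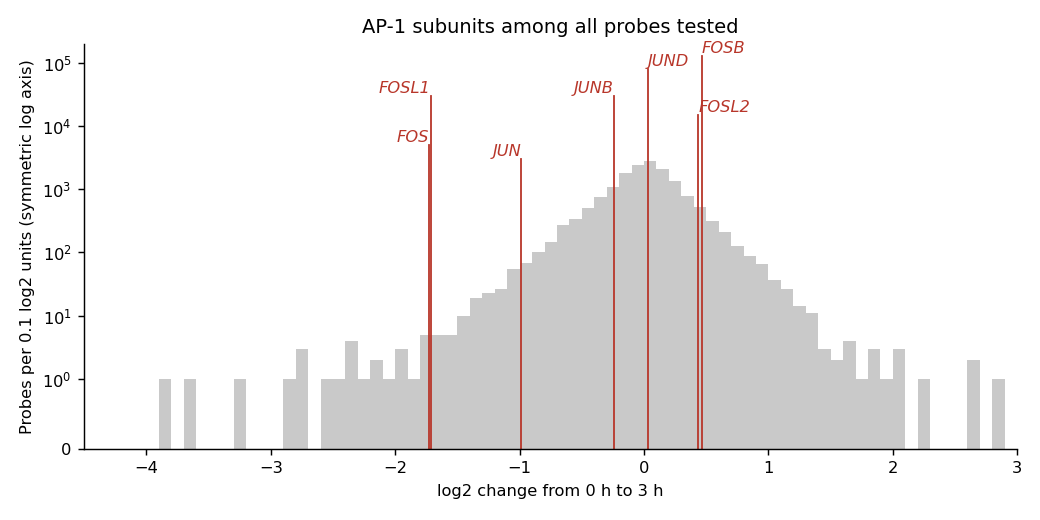
Change in log2 value from the 0 h array to the 3 h array for all 16110 probes tested (grey bars, number of probes per 0.1 log2 units on a symmetric log axis), with the 7 AP-1 subunits marked by red lines whose height carries no value. FOS (-1.73), FOSL1 (-1.71) and JUN (-0.99) lie in the lower tail, while JUNB (-0.24), JUND (0.03), FOSL2 (0.44) and FOSB (0.46) lie nearer the middle.

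**Figure D3:**
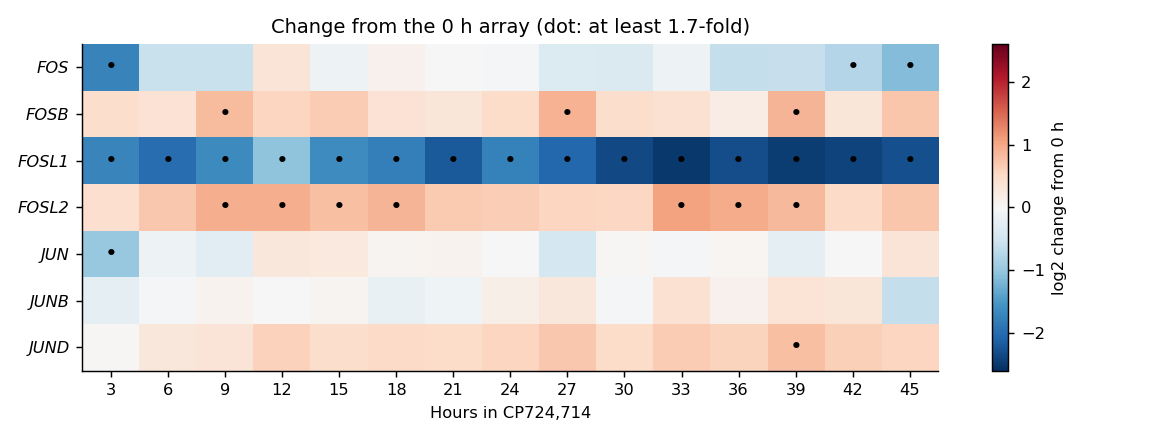
Log2 change from the 0 h array (colour, blue lower and red higher) for each subunit (rows) at each later time point (columns, hours in CP724,714), with a dot where the change is at least 1.7-fold. FOSL1 is marked at all 15 time points, FOS at 3, JUN at 3 h only and JUNB at none. FOSB, FOSL2 and JUND lie above 0 h at every time point, JUND at 3 h by only 0.03.

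Between adjacent windows, 1 of the 7 subunits differed between 0 h and 3 h to 9 h (FOSL1, falling, against 1.19% of all probes falling and 2.33% in either direction). Between 3 h to 9 h and 12 h to 21 h, 3 of the 7 rose (FOS, JUN and JUND, against 14.8% of all probes). The arrays of the later window lay wholly above those of the earlier one for these 3, as they did for 15.9% of all probes. By limma, 0 of 7 passed the threshold between 12 h to 21 h and 24 h to 33 h (9.30% of all probes), with 1, FOSL1, at an unadjusted p under 0.05 (-0.50 ± 0.22, adjusted p = 0.183). Between 24 h to 33 h and 36 h to 45 h, 0 of 7 passed (4.01% of all probes), with 1, FOS, at an unadjusted p under 0.05. Each window from 12 h on is also a set of 4 consecutive arrays, so a step between windows cannot be told apart from a step between sets of arrays. The comparison of 0 h with 3 h to 9 h lies within the first such set, and its 0 h window is 1 array, assumed to vary like the others.

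**Figure D4:**
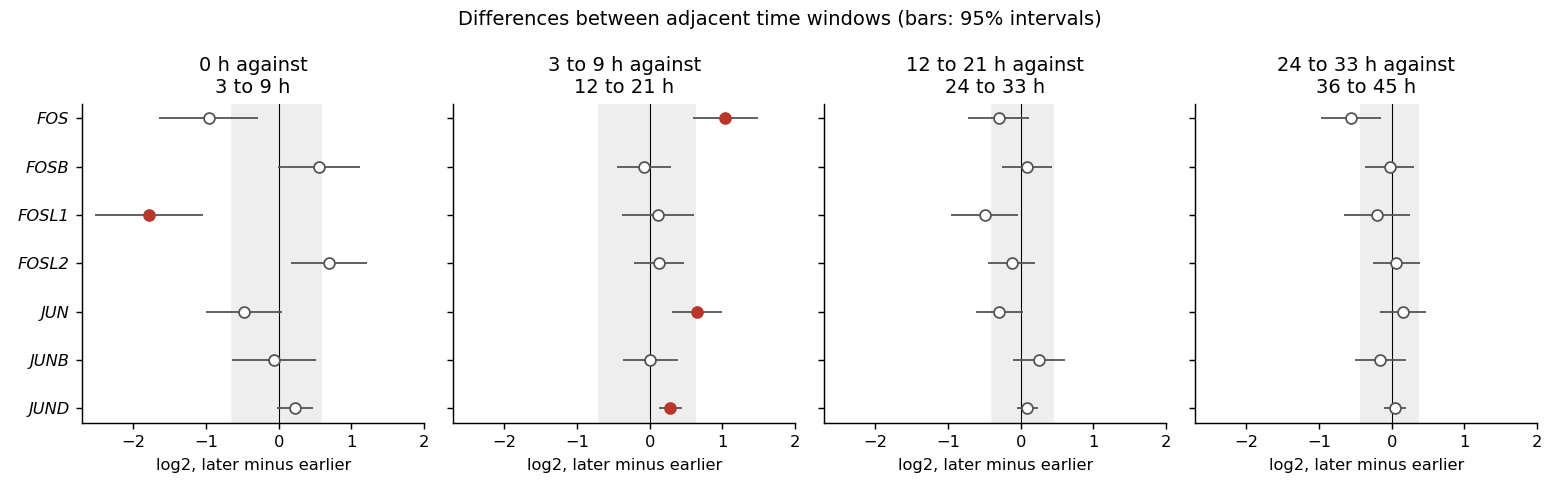
Difference in mean log2 value between adjacent windows (later minus earlier, horizontal axes) for each subunit, with 95% intervals as bars, filled red where limma's adjusted p was under 0.05 and the 5th to 95th percentile of all probes shaded. FOSL1 is filled in the first panel, FOS, JUN and JUND in the second, and no subunit in the other panels.

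Genes whose patterns over the 16 arrays were most like each subunit were sought among 12338 probes detected on all arrays. All points share the same arrays and normalization, so the coefficients are descriptions. FOS was most like CEBPB, a bZIP factor itself (Pearson r = 0.92), ZNF609 (0.87) and ZC3H12A (0.87), the last an RNase that degrades inflammatory transcripts. FOSL1 was most like TSKU (0.91), the chemokine CXCL8 (0.90), which is one of the AP-1 target genes listed below, and MMACHC (0.89). FOSL1 had its highest value at 0 h and was undetected on 6 arrays, and CXCL8 was at 13.99 at 0 h and 11.43 at 3 h. How far these coefficients rest on the 0 h array was not tested. JUN was most like ZNF248 (0.91), SEC22A (0.89) and TRIM3 (0.87), and JUND like PRICKLE2, ABCC5 and BNIP2 (0.94 each). The closest genes of the remaining members were PRKCSH for FOSB (0.82), ZFPM1 for JUNB (0.89) and a predicted locus, LOC643425, for FOSL2 (0.84), followed by DRAM2 (0.78) and BCAN (0.75) for FOSB, CAPNS1 (0.86) and MACROD1 (0.85) for JUNB, and MARF1 (0.83) and WDR19 (0.82) for FOSL2. Between subunits, FOS and JUN had an r of 0.60 and FOSL1 and JUND an r of -0.65.

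The genes around AP-1 were described from 4 lists, each gene by its brightest probe. Over all 16110 probes tested, 4190 rose and 3495 fell linearly, 47.7% in either direction, and the median change was 0.05. Of the other bZIP factors that can pair with AP-1 subunits or share their sites, 15 of 17 were tested, 7 rose linearly and 2 fell, beside 47.7% of all probes in either direction, with a median change of 0.23. The largest changes were those of MAF (2.37 ± 0.19, detected on 9 arrays), of JDP2, a repressor that dimerizes with JUN proteins (1.37 ± 0.18), and of DDIT3 (CHOP), a stress factor (0.94 ± 0.16). The 2 that fell were BATF3 (-0.64 ± 0.21), a JUN partner, and MAFF (-0.42 ± 0.14). Between 0 h and 3 h to 9 h none of the 15 passed limma's threshold.

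Of the kinases and other factors that act on AP-1 genes or proteins, 18 of 19 were tested, 4 rose and 2 fell, a smaller share than the 47.7% of all probes, with a median linear change of -0.02. The risers were RPS6KA2, an ERK-activated kinase (1.06 ± 0.20), MAP2K7, which activates JNK (0.83 ± 0.11), MAPK8, which is JNK1 (0.76 ± 0.26, detected on 12 arrays), and FBXW7, a ubiquitin ligase subunit for JUN (0.47 ± 0.14). ELK4 (-0.51 ± 0.15) and ELK1 (-0.33 ± 0.11), partners of serum response factor on the FOS promoter, fell. Serum response factor itself, SRF, was the only 1 of the 18 to fall between 0 h and 3 h to 9 h (-0.70), and it rose from there to 12 h to 21 h (0.41, limma, adjusted p = 0.0101). RPS6KA2 also rose in that later comparison (0.49, adjusted p = 0.0368). The 3 that fell were MAPK9 (-0.36, adjusted p = 0.000596), MAPK3 (-0.31, adjusted p = 0.00710) and MAP2K1 (-0.23, adjusted p = 0.0354). Of all 16110 probes, 2382 rose and 2079 fell.

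Of 25 genes described as AP-1 targets, 19 were tested, 11 fell linearly and 2 rose, beside 3495 falling and 4190 rising of all 16110 probes, with a median change of -1.05. The largest falls were those of SPRR1B, a cornified envelope protein (-3.23 ± 0.16), CXCL8 (-3.03 ± 0.30) and ODC1, the first enzyme of polyamine synthesis (-2.08 ± 0.15). The risers were DUSP1, a phosphatase of MAP kinases (1.17 ± 0.10), and EZR (0.32 ± 0.07). Between 0 h and 3 h to 9 h, 3 of the 19 fell, beside 1.19% of all probes, namely CXCL8 (-2.95, adjusted p = 1.79e-05), HBEGF, a ligand of the EGF receptor (-1.58, adjusted p = 0.0149), and the cyclin CCND1 (-1.52, adjusted p = 0.0129). From 3 h to 9 h to 12 h to 21 h, 8 of the 19 fell and 3 rose (CCND1, DUSP1 and VEGFA). Of all 16110 probes, 2079 fell and 2382 rose between these windows.

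Of 12 genes commonly used as readouts of ERK output, all 12 were tested, 9 fell linearly and 0 rose, beside 3495 falling and 4190 rising of all 16110 probes, with a median change of -1.25. The largest were ETV5 (-3.56 ± 0.42), ETV4 (-3.33 ± 0.24) and SPRY4 (-2.14 ± 0.57), which encode ETS factors and a feedback inhibitor of the pathway. Between 0 h and 3 h to 9 h, 9 of the 12 fell, beside 1.19% of all probes. Between 3 h to 9 h and 12 h to 21 h, 6 of the 12 rose, beside 14.8% of all probes, and 1, ETV4, fell. SPRY4 took the values 10.65, 7.05, 9.43 and 6.34 at 0, 3, 12 and 45 h. The median difference from 0 h to 3 h was -2.24 over these 12 genes, beside -0.24 over the 7 AP-1 subunits, and 9 of the 12 were at least 1.7-fold lower at 3 h, beside 2.43% of all probes. The lists describe known pathway roles, and a relation between their changes and those of the subunits was not tested.

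**Figure D5:**
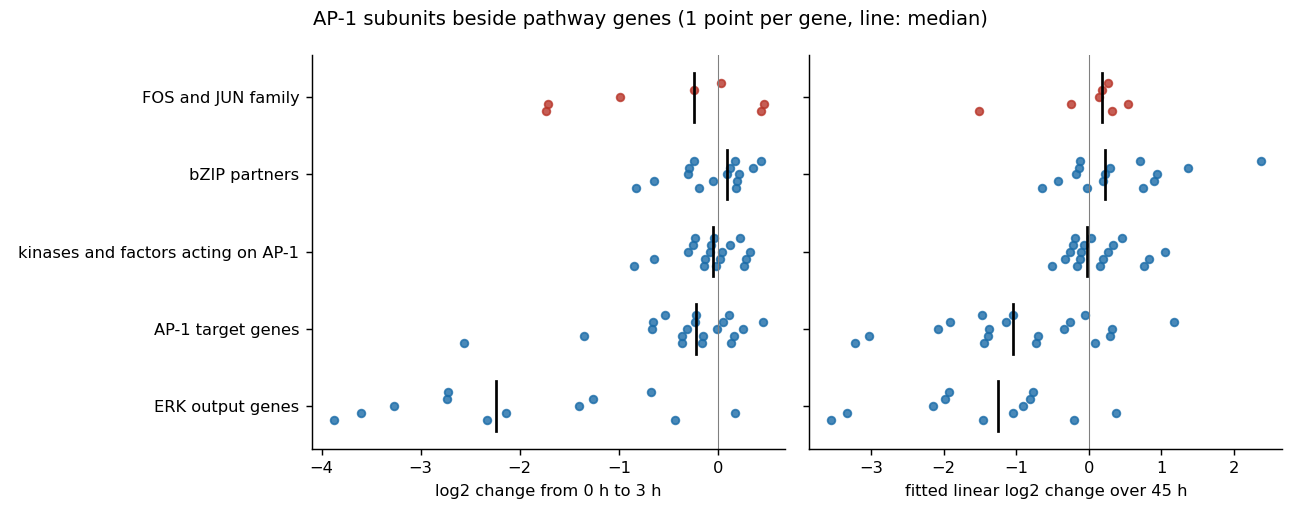
Log2 change from 0 h to 3 h (left) and fitted linear log2 change over 45 h (right), with 1 point per tested gene and a black line at each list's median, for the 7 AP-1 subunits (red) and the 4 lists (blue). The ERK output genes have medians of -2.24 and -1.25, the AP-1 target genes of -0.22 and -1.05, and the subunits of -0.24 and 0.19.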

How the data were processed

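Total RNA of each culture was amplified, biotin labelled and hybridized to an Illumina bead array, 1 per time point. The deposited table gives a linear signal intensity per probe and array that the authors had neither background-corrected nor normalized, and a deposited detection p-value. The study's methods name Ref8 arrays and quantile normalization as a later step. The scanning software and a genome build were not given in the sources used here.

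Intensities were corrected by normexp with negative controls inferred from the detection p-values (neqc, offset 16), quantile normalized and taken to log2 in limma 3.58.1 (R 4.3.3). Tests were run on probes detected (p-value under 0.05) on no fewer than 3 arrays. A cubic in hours over all 16 arrays gave time dependence, linear change and departure from a line, and a mean per window (0 h, 3 to 9 h, 12 to 21 h, 24 to 33 h, 36 to 45 h) gave the differences between windows. Both used moderated tests with an intensity trend, two-sided, with Benjamini-Hochberg adjustment over all 16110 probes and a threshold of 0.05. Arrays of a window are different time points, so the tests measure the spread around the course or window and not that between replicate cultures. The 1.7-fold threshold against 0 h was taken from the study's methods, where it served to choose genes in another line, MCF10HER2, for further comparison. The count made with it here has no test. The bound for an undetected probe was the lowest value among detected probes of the same array, or its own value where higher. The fits were tested on simulated data with independent noise on each array. Those data held no steps between sets of arrays, so they do not show how the fits handle such steps.

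All 7 AP-1 probes are named. From each list the 3 genes with the largest linear change are named, with members needed to read a count of 5 or fewer, and for each subunit the 3 probes most alike by Pearson r. SPRY4's values and the 3 h, 12 h and 45 h levels were chosen after their values were seen. The subunits, lists, windows and tests were chosen with earlier results of these data known. Of 112 symbols in these lists, 111 were found in the RefSeq gene table (GRCh38.p14) as a symbol or as the synonym of only 1 gene, and current names are printed. Motifs were sought on both strands. Alternatives were the background correction, offset, normalization, filter, array weights, course shape, sets of arrays, fold threshold and each array left out.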

Additional observations from a re-analysis of the deposited data

How the results depend on the processing

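No paired analysis was possible because no group held a second array. The number of arrays limits precision, and FOSL1 and FOSL2 were close to background. The count of time-dependent subunits, 2, became 1 with probes detected on all 16 arrays, where FOSL1 drops out, 3 with median scaling and 3 with cyclic loess, where FOS passes, 4 with array weights, 4 with a natural spline, 1 with a step between 21 and 24 h, and 2 to 4 with each array left out (4 without 0 h). The count with a linear change, 2, became 4 with array weights, 1 with the all-array filter, 0 with the sets of arrays as a factor and 0 with the step. Departure from a line, 1, became 3 with array weights, 2 with the step and 0 to 2 with each array left out (0 without 3 h or 45 h, 2 without 0 h). For 0 h against 3 to 9 h, 1 became 0 with array weights, taken from the cubic fit, 0 with the all-array filter, and 1 to 2 with each array left out (2 without 3 h). For 24 to 33 h against 36 to 45 h, 0 became 0 to 1 (FOS without 3 h, adjusted p = 0.0106). The 6 subunits changed 1.7-fold became 3 at 2-fold, 3 when 2 adjacent time points were required, 4 without background correction, and 5 with median scaling, cyclic loess, the all-array filter or the mean of 0 and 3 h as the reference, and 5 to 6 with each array left out. Apart from the filter, the causes were not tested.

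The following signs turned, all in values that had not passed the threshold. Linear changes were 0.38 (FOS, array weights), 0.51 (FOS, step), -0.51 (FOSB, step), -0.76 (JUNB, sets as a factor) and -0.038 (JUNB, step), and that of FOS ran from -0.74 to 0.012 with each array left out. Between 3 to 9 h and 12 to 21 h, FOSB was 0.0078 with median scaling and JUNB -0.037 with cyclic loess, and with each array left out FOSB ran from -0.16 to 0.051, FOSL1 from -0.086 to 0.29, FOSL2 from -0.00038 to 0.25 and JUNB from -0.081 to 0.090. JUNB ran from -0.14 to 0.029 between 0 h and 3 to 9 h, and FOSB from -0.032 to 0.14 between 12 to 21 h and 24 to 33 h, where JUND was -0.0041 with cyclic loess. Between the last windows JUNB was 0.051 with array weights, and with each array left out FOSB ran from -0.15 to 0.086, FOSL2 from -0.0090 to 0.18, JUNB from -0.27 to 0.063 and JUND from -0.0096 to 0.076.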
